A study of Mus musculus with 10 samples.

Results

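The 10 genes described here are immediate early genes that neuronal activity induces in brain: Fos, Fosb, Junb, Egr1, Egr2, Arc, Npas4, Nr4a1, Dusp1 and Ier2. They were chosen by name, and each was read from the probe set that the platform annotation assigns to that symbol alone. Each of the 10 had 1 such probe set, so no choice between probe sets was needed. They stand among 19938 genes with a value and 28944 probe sets tested. The arrays came from whole brains of 5 transgenic (Tg) mice that overexpress Glo1 from a bacterial artificial chromosome and of 5 wild-type (WT) littermates. All 10 mice were adult males on a C57Bl/6J background, group housed, naïve and untreated, and each was measured on its own Affymetrix array as a biological replicate. The sources used here name neither the promoter that drives the transgene, nor the number of founder lines, nor the time of day at which brains were taken.

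Immediate early genes are switched on by calcium entry and growth factor signalling through transcription factors that already sit in the cell, chiefly CREB, SRF and MEF2, so their transcripts appear without new protein synthesis. They are then cleared quickly, and in an undisturbed brain they are carried by scattered neurons, mostly in cortex, hippocampus and striatum. Fos, Fosb and Junb encode subunits of the AP-1 transcription factor; Egr1 and Egr2 are zinc finger factors; Npas4 is a neuron-specific factor induced by calcium; Nr4a1 is an orphan nuclear receptor. Arc acts at synapses in the removal of AMPA receptors, Dusp1 is a phosphatase that switches MAP kinases off, and Ier2 is a nuclear protein. In whole-brain RNA, fewer cells expressing a gene and less RNA per cell cannot be told apart.

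Promoter sequences were searched for letter matches to known elements, and 7 of the 10 genes matched the RefSeq promoter table of build GRCm38.p6. The 5 windows printed here are those of Fos and Npas4, the closest pair of genes over the arrays, of Nr4a1, which belonged to another close pair, of Fosb, the paralog of Fos, and of Dusp1, which holds the full CRE. Each has 250 bases ending just before the annotated start, 5′ to 3′ on the gene's strand. Capitals mark, on either strand, the CRE core TGACG, the EGR site in the form GCGTGGGCG or the form GCGGGGGCG, and the TATA box TATAAA. The full CRE, TGACGTCA, always holds the core on both strands.
Fos, chr12:85473640-85473889 (+ strand): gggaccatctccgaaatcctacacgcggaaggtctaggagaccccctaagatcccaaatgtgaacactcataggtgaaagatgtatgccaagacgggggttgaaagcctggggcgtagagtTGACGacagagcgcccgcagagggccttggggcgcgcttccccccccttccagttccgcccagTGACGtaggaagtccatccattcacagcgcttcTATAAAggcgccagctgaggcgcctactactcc
Npas4, chr19:4989972-4990221 (- strand): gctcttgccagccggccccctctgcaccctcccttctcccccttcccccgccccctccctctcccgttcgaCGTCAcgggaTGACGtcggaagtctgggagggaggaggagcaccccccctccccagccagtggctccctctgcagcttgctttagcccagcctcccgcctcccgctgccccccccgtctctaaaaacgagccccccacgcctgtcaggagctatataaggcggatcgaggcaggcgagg
Nr4a1, chr15:101266596-101266845 (+ strand): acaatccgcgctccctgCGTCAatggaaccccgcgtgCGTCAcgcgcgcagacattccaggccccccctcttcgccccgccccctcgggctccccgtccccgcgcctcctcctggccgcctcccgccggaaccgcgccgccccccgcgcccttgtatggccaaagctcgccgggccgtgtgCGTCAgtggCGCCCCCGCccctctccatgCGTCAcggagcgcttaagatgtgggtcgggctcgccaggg
Fosb, chr7:19310046-19310295 (- strand): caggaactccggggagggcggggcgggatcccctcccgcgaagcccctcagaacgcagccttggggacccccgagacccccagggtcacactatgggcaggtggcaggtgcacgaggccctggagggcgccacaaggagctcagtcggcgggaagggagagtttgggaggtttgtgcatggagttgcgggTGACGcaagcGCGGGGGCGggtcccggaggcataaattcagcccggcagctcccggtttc
Dusp1, chr17:26508473-26508722 (- strand): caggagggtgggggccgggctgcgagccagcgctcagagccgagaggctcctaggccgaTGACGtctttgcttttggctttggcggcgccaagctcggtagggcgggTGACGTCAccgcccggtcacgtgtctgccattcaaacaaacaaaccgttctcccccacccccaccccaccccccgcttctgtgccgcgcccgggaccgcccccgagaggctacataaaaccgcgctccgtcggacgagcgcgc

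The CRE core, the part of the CREB binding element common to its variants, was found for each of the 7 genes (for Egr2, in at least 1 of its 5 windows). It was found for 19.8% of all 27025 genes in the table, and in 17.8% of its 32851 windows. Fos held it at 129 and 66 bases before the start, with a TATA box at 33 bases. Nr4a1 held 4 copies and an EGR site, and Fosb held 1 copy and an EGR site. An EGR site is held by 3.47% of all genes (3.06% of windows). Dusp1 was the 1 gene with the full CRE, which 1.77% of genes hold (1.55% of windows). The CArG box, bound by SRF, was found only for Egr2 (1.62% of genes, 1.47% of windows), and the AP-1 site TGACTCA in none of the 7 (5.16% of genes, 4.46% of windows). These are letter matches in short windows, and no binding was measured.

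The median of the tested probe sets was highest on WT replicate 2, at 8.05 log2 units, against 7.95 to 7.99 on the other arrays. Its mean Pearson r with the other arrays was the lowest, at 0.992 against 0.994 to 0.997. Glo1 checked the labels at 12.08 ± 0.131 log2 units in Tg and 10.57 ± 0.193 in WT brain (SD, n = 5 each; limma adjusted p = 3.50e-05). WT replicate 2 stood apart: its 14 measured cerebellum markers averaged 8.46 log2 units, against 10.43 to 10.53 on the Tg arrays and 10.60 to 10.70 on the other WT arrays. Its 10 striatum markers averaged 10.42, against 10.16 to 10.23 in Tg and 10.22 to 10.24 on the other WT arrays, and its 10 cortex markers 10.57, against 10.45 to 10.47 in Tg and on the other WT arrays. Pituitary markers were high on Tg replicate 2 (9.02) and WT replicate 2 (9.40) and between 6.62 and 6.90 elsewhere. The differences between genotypes and the correlations between the genes are therefore also given without WT replicate 2.

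None of the 10 genes differed between Tg and WT brain past the threshold of 0.05 after Benjamini-Hochberg adjustment over all probe sets (limma adjusted p = 0.9998 for each), against 0.0345% of probe sets called (0.00691% higher and 0.0276% lower in Tg). At an unadjusted limma p under 0.05 there was 1 gene, Fos, which was lower in Tg; 2.21% of all probe sets were that low in p and 1.23% also lower in Tg. By exact permutation tests over the arrays Fos was again the 1 gene under 0.05, against 2.62% of probe sets. Means were lower in Tg for 7 of the 10 genes, against 52.2% of all probe sets, and the median difference was -0.08 log2 units, against -0.003 over all probe sets. In none of the 10 did the groups separate completely, which 0.46% of probe sets did (0.311% with all Tg arrays below). Without WT replicate 2 again 0 of the 10 passed, against 0.038% of probe sets; 6 of 10 means were lower in Tg, against 45.8%, with a median difference of -0.05. Fos was still the 1 gene under an unadjusted 0.05, when 11.0% of all probe sets were and 3.95% of all probe sets were also lower in Tg.

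**Figure D1:**
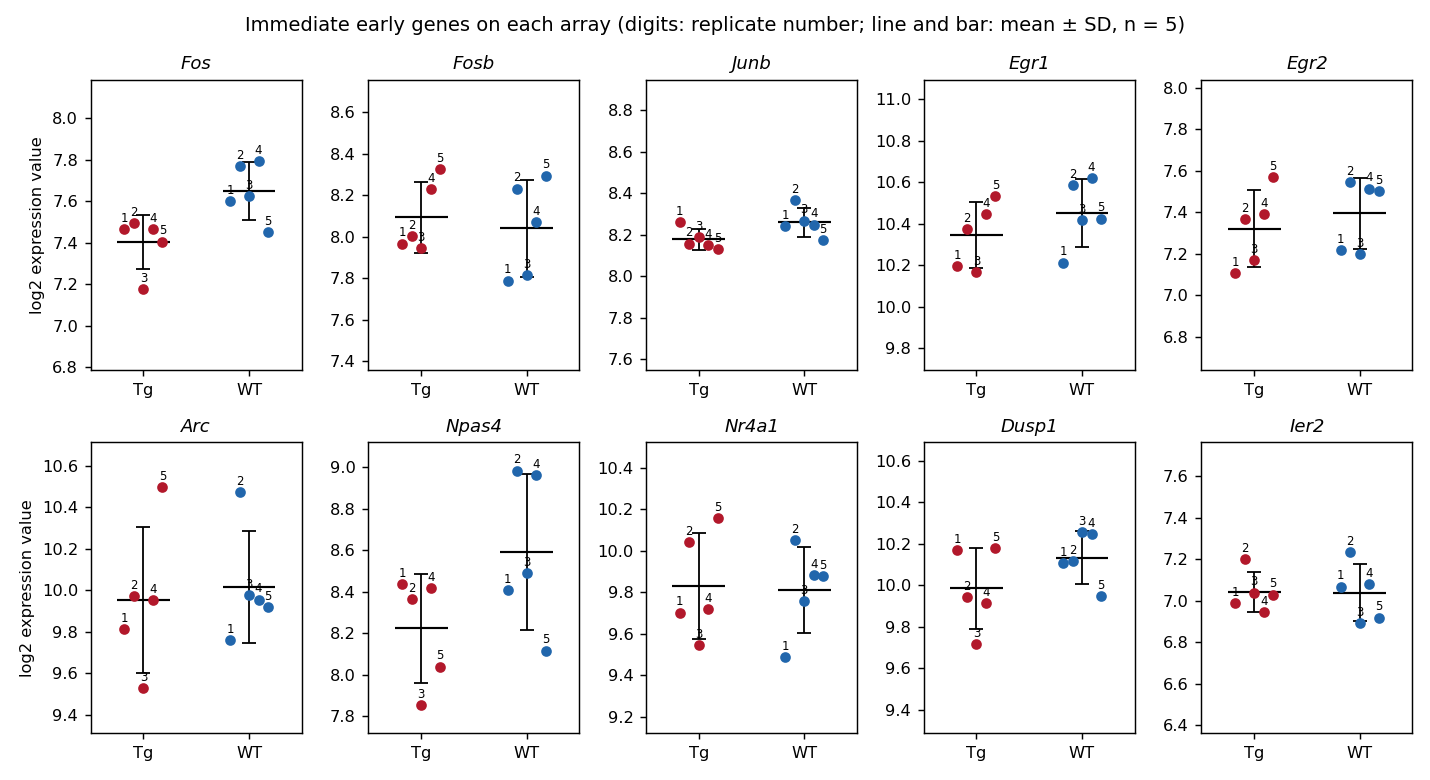
Log2 expression value of each immediate early gene on each array, Tg left and WT right; digits are replicate numbers, lines are means and bars are SDs (n = 5 each), and every panel spans the same range of log2 units. Fos was at or below 7.50 on the 5 Tg arrays and above that on 4 of the 5 WT arrays, and the groups overlap in every panel.

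Among the AP-1 genes, Fos read 7.47, 7.50, 7.18, 7.47 and 7.40 log2 units in Tg replicates 1 to 5, against 7.60, 7.77, 7.62, 7.79 and 7.45 in WT replicates 1 to 5. All Tg values lay below the WT median, and 4 of the 5 WT values lay above the highest Tg value, while WT replicate 5 fell inside the Tg range. The means were 7.40 ± 0.130 in Tg and 7.65 ± 0.139 in WT (SD, n = 5 each), a difference of -0.25 log2 units (SE 0.0779, 95% confidence interval -0.42 to -0.08), or 0.843-fold. The limma p was 0.00849 before adjustment and 0.9998 after it, and the two-sided exact permutation p was 0.0317, where 5 against 5 arrays can give no less than 0.00794. Leaving out 1 array at a time gave its lowest value, -0.30, when WT replicate 5 was dropped and its highest, -0.19, when Tg replicate 3 was. Without WT replicate 2 it was -0.22 (limma adjusted p = 0.407, exact permutation p = 0.0476).

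Fosb, whose product shares its DNA-binding and dimerisation regions with that of Fos, was close to even between genotypes. Its values were 7.97, 8.002, 7.95, 8.23 and 8.32 in Tg replicates 1 to 5, against 7.79, 8.23, 7.82, 8.07 and 8.29 in WT replicates 1 to 5. High and low arrays occurred in both genotypes, with Tg replicate 5 highest and WT replicate 1 lowest. The difference was 0.05 log2 units (95% interval -0.19 to 0.30, exact permutation p = 0.675) and its sign changed as arrays were left out, with -0.01 when WT replicate 1 was dropped and 0.12 when WT replicate 5 was; without WT replicate 2 it was 0.10.

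Junb, a partner of Fos proteins, held a narrow range of 8.13 to 8.26 in Tg and 8.17 to 8.37 in WT brain. Values in Tg were 8.26, 8.16, 8.19, 8.15 and 8.13, against 8.24, 8.37, 8.27, 8.25 and 8.17 in WT. In Tg, 3 arrays lay below the lowest WT array, and Tg replicates 1 and 3 lay among the WT values. The difference was -0.08 (95% interval -0.18 to 0.02, exact permutation p = 0.0714), between -0.10 and -0.06 with single arrays left out, the smallest size being that without WT replicate 2.

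Npas4, which drives inhibitory synapse formation onto active neurons, had the lowest difference of the 10 genes. It read 8.44, 8.37, 7.86, 8.42 and 8.04 in Tg replicates 1 to 5, against 8.41, 8.98, 8.49, 8.96 and 8.12 in WT replicates 1 to 5. WT replicates 2 and 4 were the high arrays, Tg replicate 3 was the lowest, and WT replicate 5 lay well inside the Tg range. Means were 8.22 ± 0.262 in Tg and 8.59 ± 0.375 in WT (SD, n = 5 each), a difference of -0.37 log2 units (95% interval -0.75 to 0.01), or 0.775-fold (0.596 to 1.01). The exact permutation p of the difference was 0.103, and all 5 Tg values lay below the WT median. The difference was -0.49 when WT replicate 5 was dropped and -0.27 when WT replicate 2 was, where the exact permutation p was 0.214. Npas4 also had an unadjusted limma p under 0.05 in some alternatives: 0.0113 without WT replicate 5, 0.0457 without Tg replicate 1, 0.0486 without Tg replicate 4, 0.0480 after median centring and 0.0122 with the replicate number as a block, with limma adjusted p above 0.99 in each.

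The zinc finger genes differed less. Egr1, needed for lasting synaptic plasticity, read 10.20, 10.37, 10.17, 10.45 and 10.53 in Tg, against 10.21, 10.59, 10.42, 10.62 and 10.42 in WT. WT replicates 2 and 4 were highest and Tg replicates 1 and 3 lowest, with WT replicate 1 beside them. The difference was -0.11 (95% interval -0.31 to 0.09, exact permutation p = 0.286), and -0.07 without WT replicate 2. Egr2, which in the periphery directs myelination by Schwann cells, read 7.11, 7.37, 7.17, 7.39 and 7.57 in Tg, against 7.22, 7.55, 7.20, 7.51 and 7.50 in WT. Low arrays were again Tg replicates 1 and 3 and WT replicate 1, here joined by WT replicate 3. Its difference was -0.07 (95% interval -0.29 to 0.14, exact permutation p = 0.532), and -0.04 without WT replicate 2.

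The nuclear receptor gene Nr4a1 read 9.70, 10.04, 9.54, 9.72 and 10.16 in Tg, against 9.49, 10.05, 9.76, 9.88 and 9.88 in WT. Its highest array was Tg replicate 5 and its lowest WT replicate 1. The difference of 0.02 (95% interval -0.26 to 0.30, exact permutation p = 0.905) lay between -0.06 without Tg replicate 5 and 0.09 without Tg replicate 3, and was 0.08 without WT replicate 2.

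Arc, the 1 synaptic effector of the 10, read 9.81, 9.97, 9.53, 9.95 and 10.50 in Tg replicates 1 to 5, against 9.76, 10.47, 9.97, 9.95 and 9.92 in WT replicates 1 to 5. Tg replicate 5 and WT replicate 2 stood above all other arrays, so that each genotype had 1 high array, and Tg replicate 3 was lowest. The means were 9.95 ± 0.353 in Tg and 10.02 ± 0.269 in WT (SD, n = 5 each). The difference of -0.06 (95% interval -0.43 to 0.30, exact permutation p = 0.802) turned to 0.05 without WT replicate 2 or 0.04 without Tg replicate 3, and was -0.20 without Tg replicate 5. Without WT replicate 2 the SD of the WT arrays was 0.0971.

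Dusp1, the feedback inhibitor, read 10.17, 9.94, 9.72, 9.92 and 10.18 in Tg, against 10.10, 10.12, 10.26, 10.24 and 9.95 in WT. In Tg, 3 arrays were below the lowest WT array, and Tg replicates 1 and 5 were among the WT values. The difference was -0.15 (95% interval -0.35 to 0.05, exact permutation p = 0.175), and the same to 2 decimals without WT replicate 2. Ier2 read 6.94 to 7.20 in Tg and 6.89 to 7.23 in WT, a difference of 0.002 (95% interval -0.15 to 0.16, exact permutation p of 1); without WT replicate 2 it was 0.05.

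**Figure D2:**
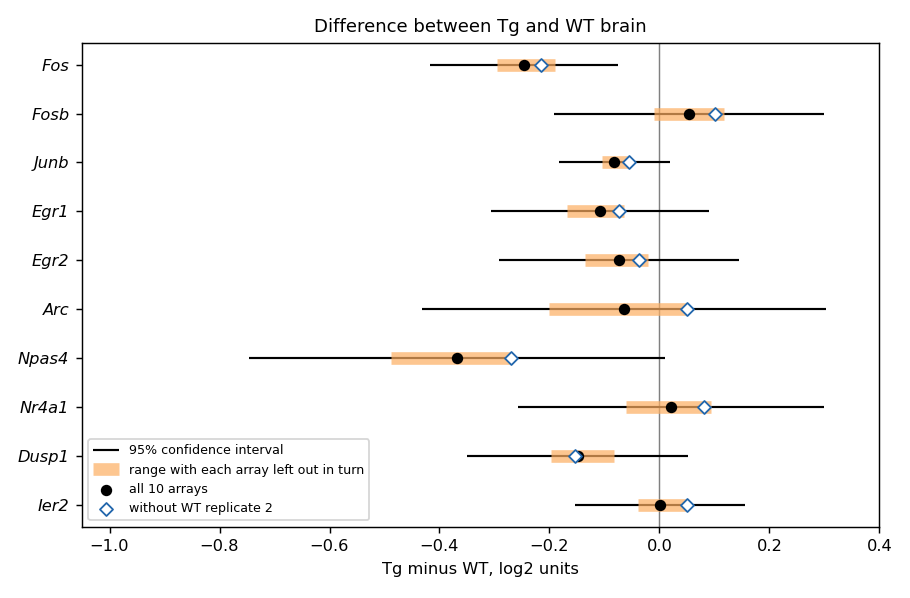
Difference of each gene, Tg minus WT, in log2 units: black points are estimates from all 10 arrays with 95% confidence intervals, orange bars span the estimates with each array left out in turn, and open diamonds are those without WT replicate 2. The interval of Fos (-0.42 to -0.08) lies below 0, the others include 0, and the orange bars of Fosb, Arc, Nr4a1 and Ier2 cross 0.

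With WT replicate 2 included, most of these genes varied more between arrays of 1 genotype than most probe sets did. The pooled SD within groups was 0.323 log2 units for Npas4 and 0.314 for Arc, against a median of 0.102 over all probe sets; 98.5% and 98.4% of probe sets were less variable. Nr4a1 (0.233) and Fosb (0.204) followed, above 95.9% and 93.3% of probe sets. Junb was the exception at 0.0615, above 15.1% of probe sets, and Ier2 (0.119) and Fos (0.134) lay between. Pooled SDs were not computed without WT replicate 2. The SD of the WT arrays with and without it was 0.269 and 0.0971 for Arc and 0.375 and 0.351 for Npas4. It was 0.209 and 0.185 for Nr4a1 and 0.232 and 0.238 for Fosb.

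The arrays did not line up by genotype. WT replicate 2 was among the 3 highest arrays for 9 of the 10 genes and WT replicate 4 for 6, and neither was among the 3 lowest for any. Tg replicate 3 was among the 3 lowest for 8 genes and among the 3 highest for 0. Tg replicate 5 was among the 3 highest for 6 genes and among the 3 lowest for 3, Fos not being one of the 6. The mean log2 value of the 10 genes ran from 8.43 (replicate 3) to 8.79 (replicate 5) in Tg and from 8.59 (replicate 1) to 8.94 (replicate 2) in WT, so the groups overlapped. Besides its low cerebellar and high striatal, cortical and pituitary markers, WT replicate 2 had the lowest astrocyte marker level (10.73, against 10.81 to 10.86 in Tg and 10.83 to 10.86 on the other WT arrays), and the highest blood marker level (7.999 over 4 measured genes, against 7.02 to 7.09 in Tg and 6.92 to 7.38 on the other WT arrays). Tg replicate 3 had the highest olfactory bulb marker level (8.74 over 12 genes, against 8.25 to 8.66 on the other Tg arrays and 8.12 to 8.37 in WT). Olfactory bulb markers had 11 of 12 means higher and 1 lower in Tg, against 52.2% of all probe sets lower. Their median difference was 0.20 log2 units (0.22 without WT replicate 2). At an unadjusted limma p under 0.05 there were 3, against 2.21% of all probe sets, and 0 after adjustment. Striatum and cortex markers each had 9 of 10 means lower in Tg, with medians of -0.08 and -0.02. Without WT replicate 2 lower means numbered 9 and 7 of 10. Cerebellum markers had 13 of 14 means higher in Tg and a median of 0.20. Without WT replicate 2 they had 13 of 14 lower and a median of -0.19, against 45.8% of all probe sets lower. The part of these in the levels of the immediate early genes was not tested beyond leaving the arrays out. Neuron markers (10 of 10 measured) were even, at 12.19 to 12.22 in Tg and 12.20 to 12.23 in WT.

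**Figure D3:**
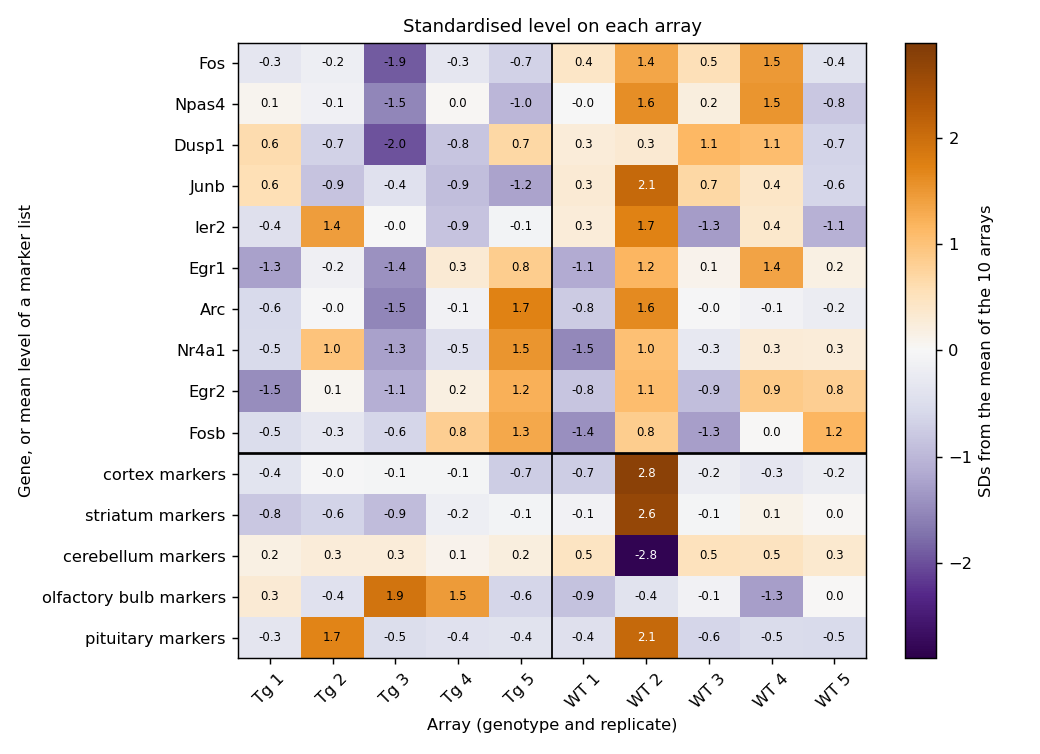
Level on each array in SDs from the mean of the 10 arrays, Tg left of WT: above the line the immediate early genes, ordered as in the heat map of correlations, and below it the mean level of 5 marker lists. WT replicate 2 is high for nearly all the genes and for cortex, striatum and pituitary markers and low for cerebellum markers, and Tg replicate 3 is low for Fos, Npas4, Dusp1, Egr1, Arc, Nr4a1 and Egr2.

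Covariation was examined next, to see whether the 10 genes moved as 1 activity program from brain to brain. Over the 10 arrays 38 of the 45 pairs correlated positively, with a median Pearson r of 0.39, against 0.04 over all pairs of the 19938 genes. An r above 0.7 was reached by 10 of the 45 pairs and by 6.25% of all gene pairs. The first principal component of the standardised genes carried 49.0% of their variance, with loadings above 0 for all 10 (0.16 for Junb to 0.42 for Egr1). A single axis did not hold the rest, since the second carried 27.3%, with Fosb (-0.44), Egr2 (-0.30) and Nr4a1 (-0.26) at one end and Junb (0.48), Npas4 (0.39) and Fos (0.37) at the other. The pairs share their arrays and are not independent of each other. Without WT replicate 2 the median r was 0.22, with 32 pairs above 0, and the first component carried 43.6%. After median centring of all 10 arrays the median r was 0.32, with 36 pairs above 0, and the first component carried 44.9%.

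**Figure D4:**
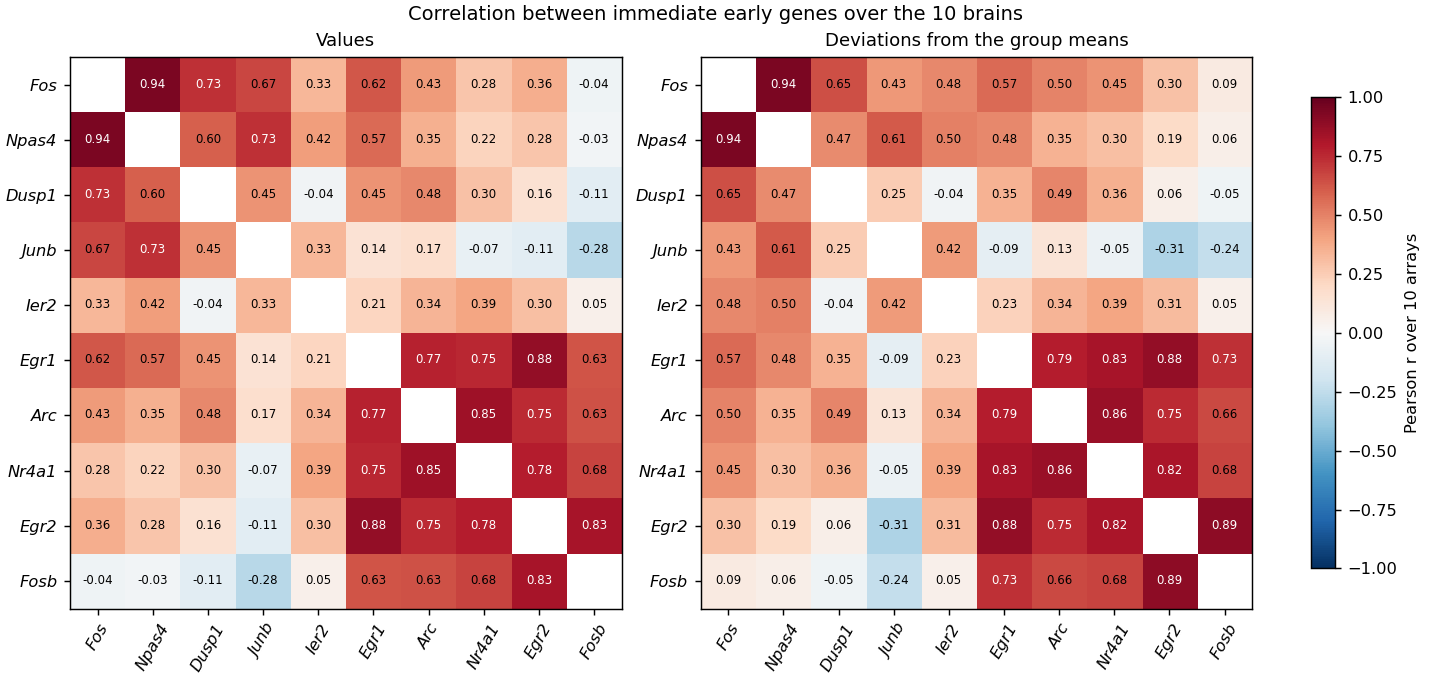
Pearson r over 10 arrays for each pair of immediate early genes, from the log2 values (left) and from their deviations from the genotype means (right). Egr1, Arc, Nr4a1, Egr2 and Fosb form 1 red block with r from 0.63 to 0.88 (left), Fos and Npas4 a pair at 0.94, and r between Fosb and Fos, Npas4, Dusp1 and Junb is below 0 in the left panel.

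After adjustment over the 45 pairs, 3 pairs passed 0.05. Fos and Npas4 were closest, with r = 0.94 (permutation p = 5.0e-05, adjusted p = 0.00225) and Spearman's rho of 0.89 (permutation p = 0.00120, adjusted p = 0.0181). Both were highest on WT replicates 2 and 4 and lowest on Tg replicate 3. On deviations from the genotype means r was again 0.94 (exact permutation adjusted p = 0.0414), so the relation did not rest on the difference between genotypes. It was 0.89 without the 2 arrays farthest from the Fos median (Tg replicate 3 and WT replicate 4). Without WT replicate 2 it was 0.92 (exact permutation adjusted p = 0.0384). Tg replicate 3 and WT replicates 2 and 4 were not all left out together, so a part of these arrays jointly was not tested.

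Egr1 and Egr2 gave r = 0.88 (permutation p = 0.00154, adjusted p = 0.0231), rho = 0.89 (permutation p = 0.00121) and r = 0.78 without Tg replicates 1 and 3. Arc and Nr4a1 gave r = 0.85 (permutation p = 0.00146, adjusted p = 0.0231), rho = 0.89 (permutation p = 0.00113) and r = 0.74 without Tg replicate 5 and WT replicate 2. On deviations from the genotype means r was 0.88 and 0.86 for these pairs, and Fosb with Egr2 (r = 0.89) passed as well (exact permutation adjusted p = 0.0414 for each of the 4). Without WT replicate 2 the adjusted exact permutation p was 0.0717 for Egr1 with Egr2, 0.0541 for Arc with Nr4a1 and 0.101 for Fosb with Egr2, so Fos with Npas4 was then the 1 pair past 0.05. The count of pairs was also 1 without Tg replicate 1, 4 or 5, and 6 without WT replicate 4.

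Fos and its paralog Fosb had no detectable correlation over 10 arrays, with r = -0.04 (permutation p = 0.911, adjusted p = 0.940) and rho = -0.24 (permutation p = 0.514), and r = -0.31 without Tg replicate 3 and WT replicate 4. Their high arrays differed: Fosb was highest on Tg replicate 5 and WT replicate 5, where Fos was the second lowest of the Tg arrays and the lowest of the WT arrays. Set out by gene, the 10 pairs among Egr1, Egr2, Arc, Nr4a1 and Fosb had r from 0.63 to 0.88 with a median of 0.76. The 6 pairs among Fos, Npas4, Dusp1 and Junb ran from 0.45 to 0.94 with a median of 0.70, and the 20 pairs between these sets from -0.28 to 0.62 with a median of 0.25. On deviations from the genotype means the medians were 0.80, 0.54 and 0.24, and without WT replicate 2 they were 0.71, 0.61 and 0.07. The sets were drawn after the correlations were seen, so these are descriptions with no test. Ier2 joined neither set, with r of -0.04 to 0.42 to the other genes.

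**Figure D5:**
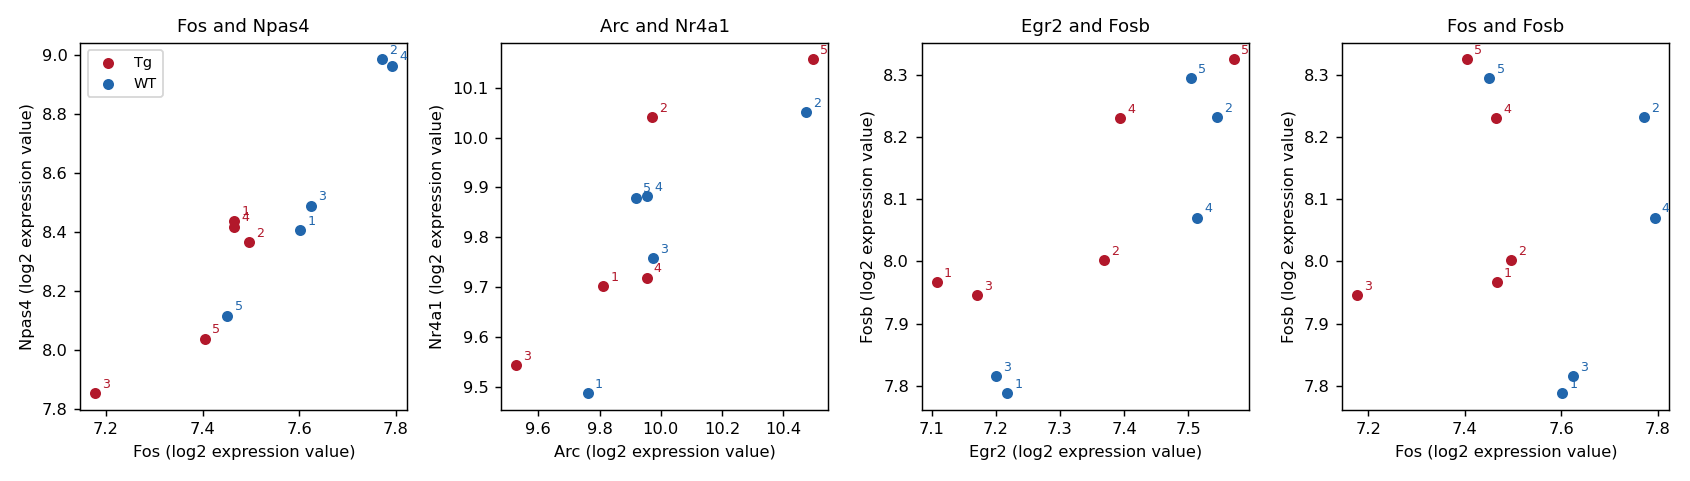
Log2 values of 4 pairs of genes on each array (red Tg, blue WT, digits are replicate numbers). Fos with Npas4, Arc with Nr4a1 and Egr2 with Fosb rise together (r of 0.94, 0.85 and 0.83), and Fos with Fosb does not (r = -0.04), since Tg and WT replicates 5 are high for Fosb and low for Fos.

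Genes outside the 10 were ranked by the correlation of their deviations from the genotype means with the mean standardised deviation of the 10 genes, over the 10 arrays. The 8 most alike were Pnpla3 (r = 0.95), Olfr1290 (0.95), Scgb1a1 (0.95), Clec14a (0.94), Slc15a1 (0.93), Epha10 (0.92), Pclaf (0.91) and Ces2a (0.91). None belongs to the activity lists, and their values spanned 0.172 (Pnpla3) to 0.507 (Epha10) log2 units over the 10 arrays. Their r ran from 0.87 to 0.97 without WT replicate 2. Scgb1a1, Ces2a, Olfr1290 and Slc15a1 were dim, at mean log2 values of 4.30, 4.66, 4.92 and 5.58 over the 10 arrays. The lowest log2 value of the probe sets tested was 3.41. The others of the 8 averaged between 6.87 (Clec14a) and 8.67 (Pnpla3). Whether the dim genes were expressed in these brains was not tested. The 4 most opposite were Nes (-0.95), Sox4 (-0.95), 6430571L13Rik (-0.90) and G530011O06Rik (-0.90). An r above 0.7 was held by 1004 of 19928 genes (5.04%), so a high r with 10 arrays is common. Among the 10 genes themselves, which enter the mean, r ran from 0.32 for Junb to 0.87 for Arc.

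Other activity-regulated genes were read from lists set by role. Of 19 further activity-induced transcription factors, such as Jun, Egr3, Nr4a2 and Atf3, 0 passed in either direction, against 0.0345% of all probe sets. An unadjusted limma p under 0.05 was held by 1, against 2.21% of all probe sets. The median difference was -0.02 log2 units, against -0.003 over all probe sets. Btg2, an antiproliferative cofactor, averaged 8.52 ± 0.172 in Tg and 8.85 ± 0.271 in WT (SD, n = 5 each), a difference of -0.33 (exact permutation p = 0.0556), and Klf10, a zinc finger factor, differed by -0.10 (exact permutation p = 0.167). Of 19 activity-induced effectors, among them Homer1, Bdnf and Nptx2, 0 passed, against 0.0345% of all probe sets. In this list 1 was under an unadjusted 0.05, against 2.21% of all probe sets, and the median was 0.02. Gadd45b, which promotes DNA demethylation, differed by -0.17 (exact permutation p = 0.0556) and Ccn1, a matrix protein, by -0.19 (exact permutation p = 0.127).

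Of 12 feedback inhibitors 0 passed, against 0.0345% of all probe sets, and 0 were under an unadjusted limma p of 0.05, against 2.21%. Their median was 0.03. Means were higher in Tg for 10 of the 12 and lower for 2, against 52.2% of all probe sets lower. Without WT replicate 2, 4 were lower, against 45.8%. Dusp4, another MAP kinase phosphatase, differed by 0.13 (exact permutation p = 0.103) and Zfp36, which speeds decay of short-lived mRNAs, by -0.07 (exact permutation p = 0.143). Of 20 upstream activators, such as Creb1, Srf and Mef2c, 0 passed, also at an unadjusted 0.05, against the same 0.0345% and 2.21%. Their median was -0.03, with 17 of 20 means lower in Tg, against 52.2% of all probe sets (16 of 20 without WT replicate 2, against 45.8%). Crtc1, a CREB coactivator, and Elk4, an SRF partner, each differed by -0.09 (exact permutation p = 0.0952 and 0.103). Without WT replicate 2 again 0 members of these 4 lists passed, and the medians were 0.01, 0.03, 0.03 and -0.03.

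In their likeness to the 10 genes from brain to brain, the 19 further transcription factors had a median r of 0.28 with the mean of the 10, the 19 effectors 0.30 and the 12 feedback inhibitors 0.32. The 20 upstream activators had a median of -0.005 and all genes outside the 10 a median of 0.19. The closest gene of each list, picked for its value, was Csrnp1 (0.90), Amigo3 (0.83), Dusp6 (0.71) and, among activators, Srf (0.76). Blood markers (4 genes) had a median r of 0.62, pituitary markers 0.58, striatum markers 0.55, cortex markers 0.21, cerebellum markers -0.60, astrocyte markers -0.54 and olfactory bulb markers -0.48; WT replicate 2 is extreme for each of these lists but the olfactory bulb and is also the highest array for the mean of the 10 genes. These medians were not computed without it.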

How the data were processed

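Log2 expression values of 1 array per brain (5 Tg, 5 WT) were used as deposited; the submitters' processing notes name Expression Console 1.1.2 as the authors' software, and no source used here gives its background correction or normalization. The number of arrays limits precision. Platform controls (6612 of 35556 rows) were left out. Symbols came from the platform annotation, updated through Entrez identifiers (21698 of 21789 single-gene probe sets matched). Tg and WT were compared with limma 3.58.1 under R 4.3.3 (lmFit and eBayes on genotype alone), p-values being adjusted by Benjamini-Hochberg across 28944 probe sets, and by two-sided exact permutation of 252 assignments. The 45 pairs were tested with 100000 permutations, and with exact permutation within genotype for deviations and on 9 arrays. The limma and correlation steps were tested on simulated data with known answers. Named genes were the 10 members, Glo1, the 2 lowest p of each activity list and the 8 most and 4 least alike; the pairs and list maxima described were picked after their values were seen. Members and lists were chosen with earlier results of these data known. List genes without a single-gene probe set were not analysed here. Deviations of same-numbered Tg and WT arrays correlated unevenly (r from -0.47 to 0.45), and 4 of 10 arrays correlated best with their own number. Replicate numbers were not taken as pairs in the main comparison, and they entered 1 alternative as a block. Alternatives covered normalization, dim probe sets, variance models, array weights, blocks, covariates and single arrays.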

Additional observations from a re-analysis of the deposited data

Results flagged for a closer look

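Of 56 groups of 5 arrays examined (10 genes and 18 list levels in each genotype), 7 held an array whose gap to the nearest other exceeded 0.71 of the group's range, and chance flags about 1 in 20. Among the immediate early genes this was Fos on Tg replicate 3, at 7.18 log2 units against 7.40 to 7.50 on the other Tg arrays. Without that array Fos differed by -0.19 between Tg and WT. The other values were marker list means. On WT replicate 2 cortex markers were at 10.57 (10.45 to 10.47 on the other WT arrays), striatum markers at 10.42 (10.22 to 10.24), cerebellum markers at 8.46 (10.60 to 10.70), astrocyte markers at 10.73 (10.83 to 10.86) and pituitary markers at 9.40 (6.62 to 6.79). On Tg replicate 2 pituitary markers were at 9.02 (6.75 to 6.90 on the other Tg arrays).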

How the results depend on the processing

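Under all 18 alternatives 0 of the 10 genes passed, 2 probe sets were called higher and 7 to 9 lower in Tg; leaving out the dimmest 40% removed Egr2 and Ier2, so 8 genes were tested there. Fos, Npas4, Dusp1, Egr1, Egr2 and Junb kept their sign in each alternative run on them. Small differences changed sign: Arc was 0.0091 with array weights, 0.041 without Tg replicate 3 and 0.050 without WT replicate 2; Ier2 was -0.024 after quantile normalization and -0.0037 with the number in the sample description as a covariate. With single arrays left out Arc ranged from -0.20 to 0.050, Fosb from -0.0091 to 0.12, Nr4a1 from -0.060 to 0.093 and Ier2 from -0.038 to 0.050; the cause was not tested. With the replicate number as a block, 2 probe sets were higher and 9 lower and Fos differed by -0.25 (limma adjusted p = 0.9992); 4 of 10 arrays correlated best with their own number. The count of probe sets at an unadjusted p under 0.05 was 640, and 3189 without WT replicate 2. Pairs past 0.05 numbered 3, and 1 to 6 with single arrays left out (1 without Tg replicate 1, 4 or 5 or WT replicate 2, 6 without WT replicate 4), where the mean r ranged from 0.245 to 0.477 and the first component from 41.2% to 55.8%. Median centring gave 2 pairs past 0.05, a mean r of 0.338 and 44.9% on the first component. Quantile normalization gave 4 pairs, a mean r of 0.348 and 45.5%. The main run had a mean r of 0.404 and 49.0%. Each gene had 1 probe set, so averaging probe sets gave no alternative.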

Other observations

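Lists of genes that respond to stress hormone and to time of day were read on the same arrays. Of 11 measured glucocorticoid-induced genes, such as Fkbp5, Sgk1 and Tsc22d3, 0 passed the limma threshold, against 0.0345% of all probe sets. An unadjusted limma p under 0.05 was held by 0, against 2.21%. Means were lower in Tg for 9, against 52.2% of all probe sets. The median difference was -0.03 log2 units, against -0.003 over all probe sets. Leaving out WT replicate 2 gave 7 lower means, against 45.8% of probe sets, and a median of -0.02. Their mean level was 9.99 to 10.13 in Tg and 10.02 to 10.16 in WT. Of 11 clock genes 0 passed and 1 had an unadjusted p under 0.05, against 2.21% of all probe sets, with 9 means lower in Tg and a median of -0.07. The clock list had 10 lower means and a median of -0.08 without WT replicate 2. Their level was 9.82 to 9.98 in Tg and 9.92 to 10.01 in WT. Tg replicate 3, the lowest array for the immediate early genes, read 10.07 for the glucocorticoid list and 9.90 for the clock list. WT replicate 2, the highest, read 10.06 for the glucocorticoid list, inside the WT range, and 9.92 for the clock list, the lowest of the WT arrays.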
